A study of Mus musculus with 30 samples.

Results

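The hepatocyte transcripts described here are 35 genes whose mRNA is made mainly by liver cells, followed in gonadal white adipose tissue (gWAT), the visceral fat depot beside the testes. All 35 listed genes were found, of 22180 genes with a probe set that carries 1 gene symbol and of 41345 probe sets on the array. For each gene the probe set with the highest mean over all 30 arrays was used, and each of the 35 had exactly 1 such probe set. The list was put together with earlier results of these arrays known, so the shared behaviour of its members is given as a description without a test.

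Hepatocytes make most of the proteins of blood plasma, among them albumin, fibrinogen, apolipoproteins and protease inhibitors, and in mice also the major urinary proteins. They also carry enzymes for glucose release, urea formation and the breakdown of drugs. Adipocytes store triglycerides and secrete other proteins, such as adiponectin and leptin, although some liver-type genes are known to be expressed in fat at a lower level, Azgp1 among them.

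The arrays came from 5 groups of wild type male C57BL6/J mice, 6 arrays in each group, all taken at an age of 35 weeks. High-fat diet (HFD) was rich in sucrose and drew 58% of its energy from fat, and control diet drew 10.5%. Formerly obese-HFD mice spent 20 weeks on HFD, 7 weeks on control diet and a last 48 h on HFD again, and formerly obese mice had the same without the last step. Obese mice received HFD for 27 weeks. Lean-HFD mice spent 27 weeks on control diet and then 48 h on HFD, and lean mice had control diet alone for 27 weeks. The study also profiled livers, which are not analysed here.

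Expression is given as the deposited log2 value of a probe set, and each difference between groups is a log2 difference ± its SE in limma's fit. Array medians lay between 4.85 and 4.97, and no value of one gene is set against the value of another gene, since probe sets differ in brightness. Adipoq, which codes for adiponectin, ranged from 11.22 to 11.89 over the 30 arrays, and all 9 measured adipocyte markers were over a level of 16 (4 on the log2 scale) on every array. The adipocyte markers had a median correlation with Alb of 0.04 after group means were removed. In bulk tissue, fewer cells of a type and less RNA per cell cannot be told apart. Dissection or scan batches are not given in the sources used here, and the p-values measure only the spread between these arrays.

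Promoter sequence was compared because genes of one cell type often share binding letters near their start. Of the 35 genes, 30 matched a RefSeq promoter window (GRCm38.p6, 300 bases that end just inside the gene). Apoa2 and Asgr1 had 2 windows each, and a gene was counted if any of its windows matched. A count of genes is thus set beside a share of windows. The letters GTTAAT, part of the site of the hepatocyte nuclear factor HNF1, were found on either strand in 10 of the 30 genes, against 7.1% of all 32851 windows. The 10 genes were Alb, C8a, Fga, Fgb, G6pc, Mug1, Pzp, Serpina1a, Serpina1e and Vtn. The letters TTGCNNAA, a C/EBP motif, were in 14 of the 30 genes, Apoa2 and Asgr1 among them, against 10.8% of all windows. CAAAGTCC, an HNF4 motif, was in 2 members (1.42% of all windows), and TATAAA was in 6 (13.6% of all windows). Matches of different motifs were counted separately, whether or not they overlapped, and a match is a run of letters and not a shown site.

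The windows printed here were picked from the 10 genes that hold GTTAAT. They are those of Alb itself, Fgb and Pzp, which followed Alb closely, and Serpina1a, which did not. Capitals mark GTTAAT or its complement ATTAAC, and each is written 5′ to 3′ on the strand of its gene.
Alb, chr5:90460620-90460919, plus strand: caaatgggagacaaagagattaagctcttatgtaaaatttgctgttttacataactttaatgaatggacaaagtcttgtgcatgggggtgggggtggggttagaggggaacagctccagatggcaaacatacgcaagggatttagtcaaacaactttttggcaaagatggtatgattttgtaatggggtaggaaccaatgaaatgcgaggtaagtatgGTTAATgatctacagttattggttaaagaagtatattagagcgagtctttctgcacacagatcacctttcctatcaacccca
Fgb, chr3:83049814-83050113, minus strand: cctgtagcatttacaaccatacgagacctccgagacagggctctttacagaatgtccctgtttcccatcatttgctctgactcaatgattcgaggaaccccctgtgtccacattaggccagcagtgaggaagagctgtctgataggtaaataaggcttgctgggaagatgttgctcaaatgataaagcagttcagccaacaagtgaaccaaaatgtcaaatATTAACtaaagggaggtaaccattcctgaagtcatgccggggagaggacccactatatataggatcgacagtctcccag
Pzp, chr6:128526671-128526970, minus strand: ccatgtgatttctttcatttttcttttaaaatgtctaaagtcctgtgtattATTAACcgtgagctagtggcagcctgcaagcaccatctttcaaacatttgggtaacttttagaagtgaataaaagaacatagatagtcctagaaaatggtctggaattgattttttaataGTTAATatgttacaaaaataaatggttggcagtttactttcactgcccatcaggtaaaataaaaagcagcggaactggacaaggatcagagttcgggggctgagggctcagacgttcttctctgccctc
Serpina1a, chr12:103863570-103863869, minus strand: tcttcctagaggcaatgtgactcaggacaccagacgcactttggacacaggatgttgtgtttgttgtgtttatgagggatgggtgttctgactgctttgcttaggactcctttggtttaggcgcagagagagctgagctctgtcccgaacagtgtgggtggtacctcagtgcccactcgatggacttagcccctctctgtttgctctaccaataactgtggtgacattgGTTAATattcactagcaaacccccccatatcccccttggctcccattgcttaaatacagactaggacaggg
Pzp held the letters at 2 places and the other windows at 1 place each. All printed windows hold the letters by this choice. Of the members that followed Alb most closely, Pzp (0.93), Fgb (0.90), Mug1 (0.90) and Fga (0.89) held them. The matched windows of Apoa2 (0.97), Mup3 (0.96), Ahsg (0.92), Fgg (0.90), Apoa1 (0.90) and Ambp (0.90) did not.

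Alb, the main protein of plasma, varied widely between mice of the same group. In formerly obese-HFD mice Alb was 9.99, 7.10, 7.99, 9.46, 9.53 and 8.53 in replicates 1 to 6. In formerly obese mice it was 10.37, 7.83, 8.44, 6.70, 8.34 and 6.87, and in obese mice 7.59, 6.46, 7.27, 8.54, 6.32 and 6.04. The arrays of obese mice were the lowest as a group, with 1 array above 8. In lean-HFD mice Alb was 11.77, 12.08, 8.18, 12.33, 10.77 and 9.97, against 9.82, 9.01, 8.91, 11.16, 6.71 and 7.54 in lean mice. Lean-HFD replicates 4, 2 and 1 had the highest values of all 30 arrays, followed by lean replicate 4, lean-HFD replicate 5 and formerly obese replicate 1. By group median the order was lean-HFD (11.27), formerly obese-HFD (8.997), lean (8.96), formerly obese (8.08) and obese (6.87), and the ranges of all 5 groups overlapped. The SD of Alb within a group, pooled over groups, was 1.33 log2 units.

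**Figure D1:**
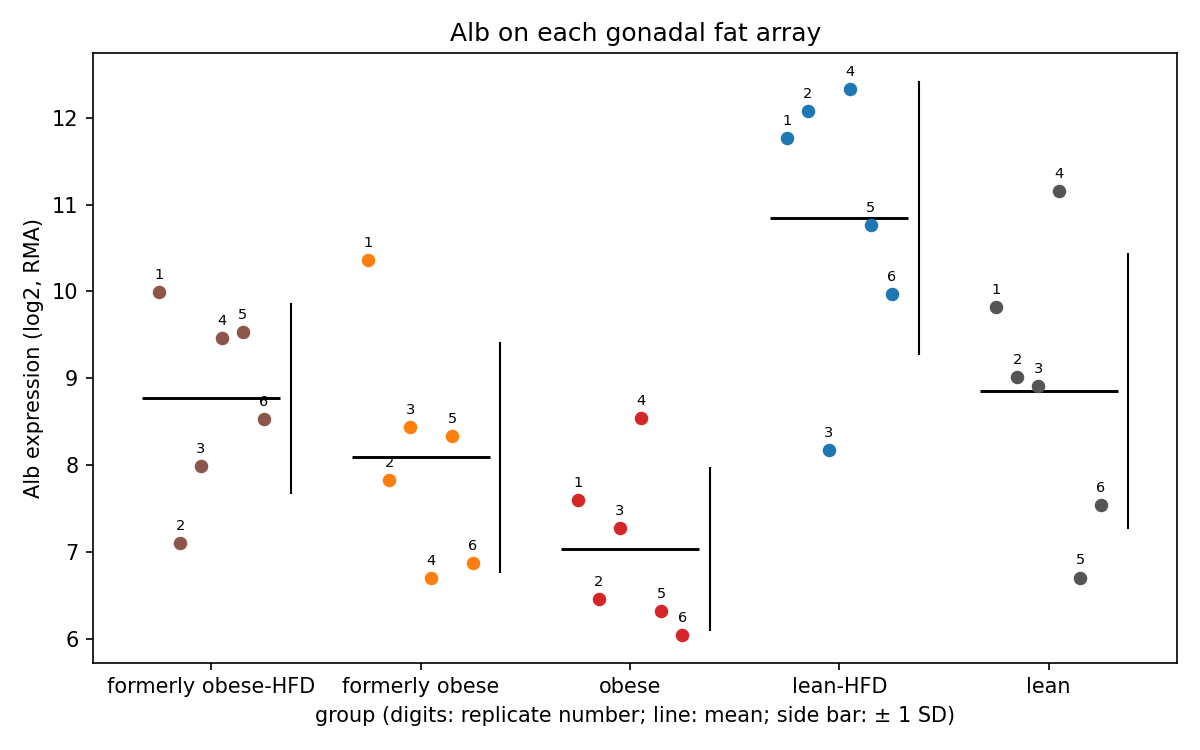
Alb expression (log2) on each array, by group, with replicate numbers, the group mean as a line and ± 1 SD as a bar at the side. Lean-HFD replicates 4, 2 and 1 lie at 12.33, 12.08 and 11.77, while lean-HFD replicate 3 lies at 8.18, within the range of every other group.

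The arrays with high Alb were also those on which the other hepatocyte transcripts were high. The number of the 35 genes over a level of 16 ran from 12 on obese replicate 6, the array with the lowest Alb, to 35 on lean-HFD replicates 1, 2 and 4 and on lean replicate 4. Formerly obese replicate 1 and lean-HFD replicate 5 had 34 each. Lean-HFD replicate 2 held the highest value of 24 genes, lean-HFD replicate 4 that of 10 genes, and lean-HFD replicate 5 that of Serpina1a. For 28 of the 35 genes, Alb included, the 3 highest arrays of all 30 were lean-HFD replicates 1, 2 and 4. The same held for 0.762% of all genes. The remaining 7 genes, Pon1, Serpina1a, Serpina1e, Mup20, G6pc, Fbp1 and Asgr1, shared 2 of these 3 arrays.

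**Figure D2:**
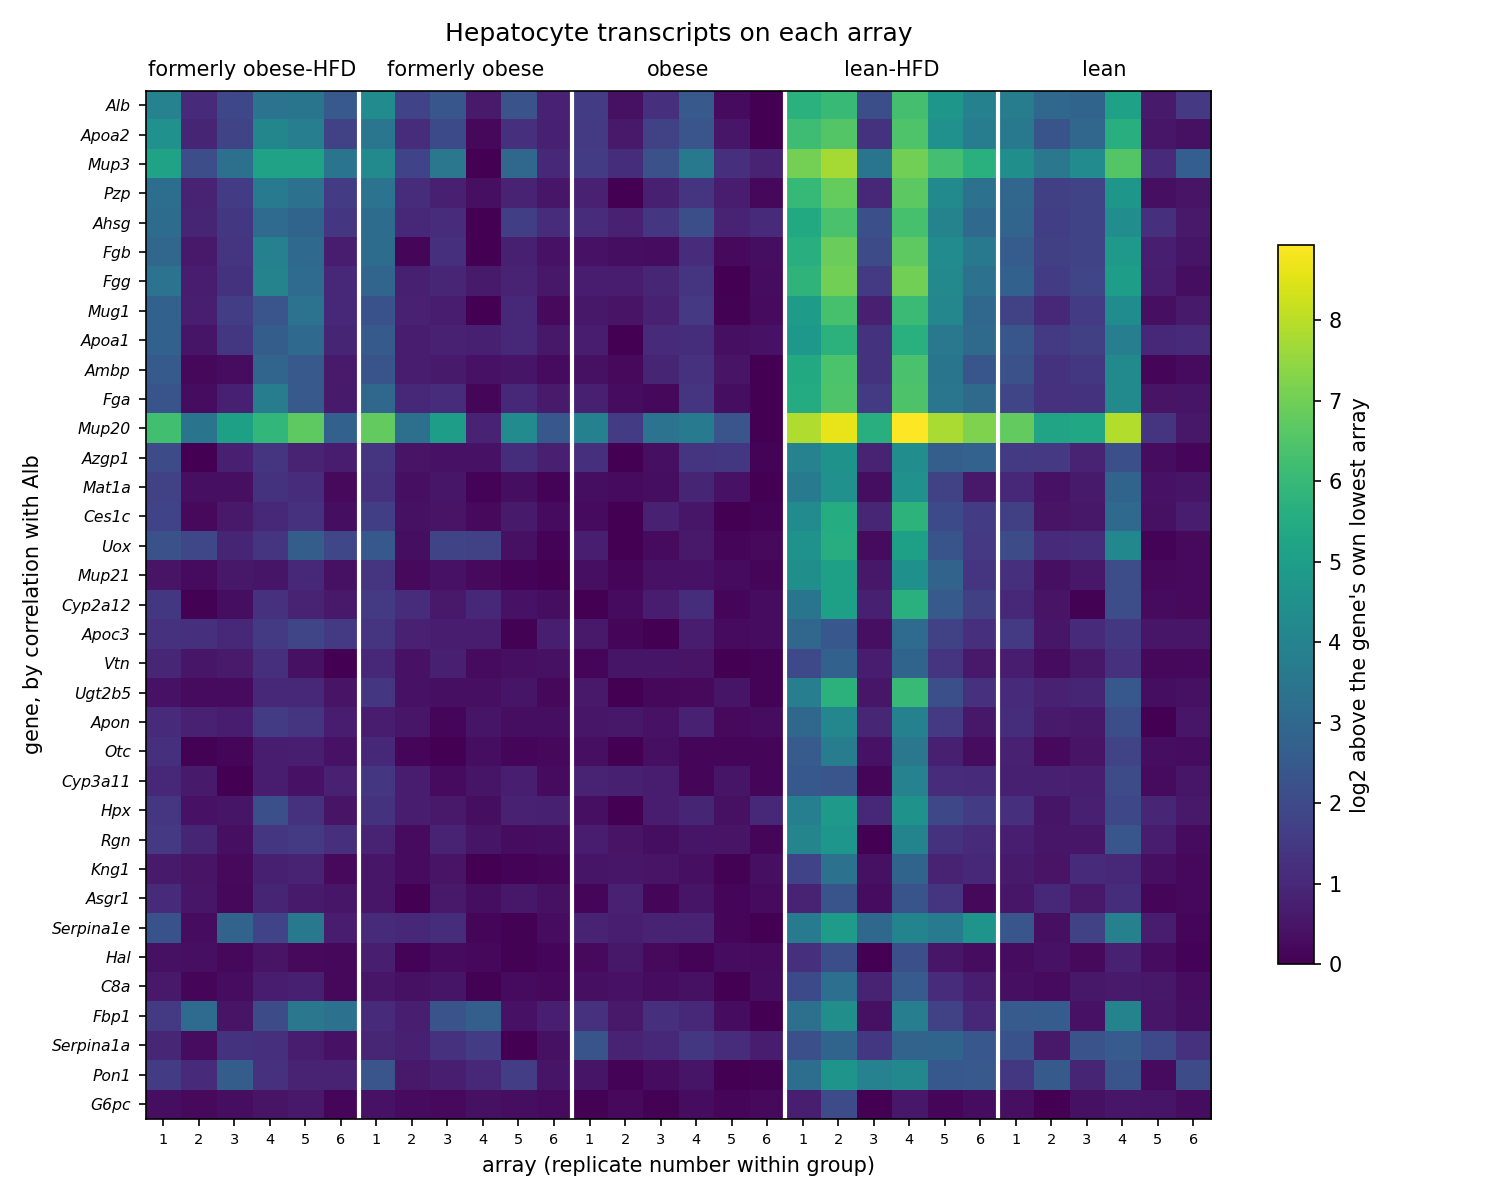
Each of the 35 hepatocyte transcripts (rows, by falling correlation with Alb) on each of the 30 arrays (columns, by group and replicate number), coloured by log2 units above the lowest array of that gene. The median height above the lowest array is 4.94 on lean-HFD replicate 2, 4.51 on replicate 4 and 3.85 on replicate 1, followed by 2.56 on lean replicate 4 and 2.46 on lean-HFD replicate 5, and it is 0.865 on lean-HFD replicate 3, the darkest column of its group.

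The level of 16 lies below the array medians and is the level filter of the study's call rule, not a detection limit. On every array 10 genes were over it: Alb, Apoa1, Apoa2, Apoc3, Pon1, Hpx, Azgp1, Vtn, Serpina1a and Serpina1e. Just below that, Ambp, Ahsg and Mup3 were over it on 29 arrays. At the other end, Ugt2b5, an enzyme that attaches glucuronic acid, was over it on 5 arrays and Mup21 on 7.

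**Figure D3:**
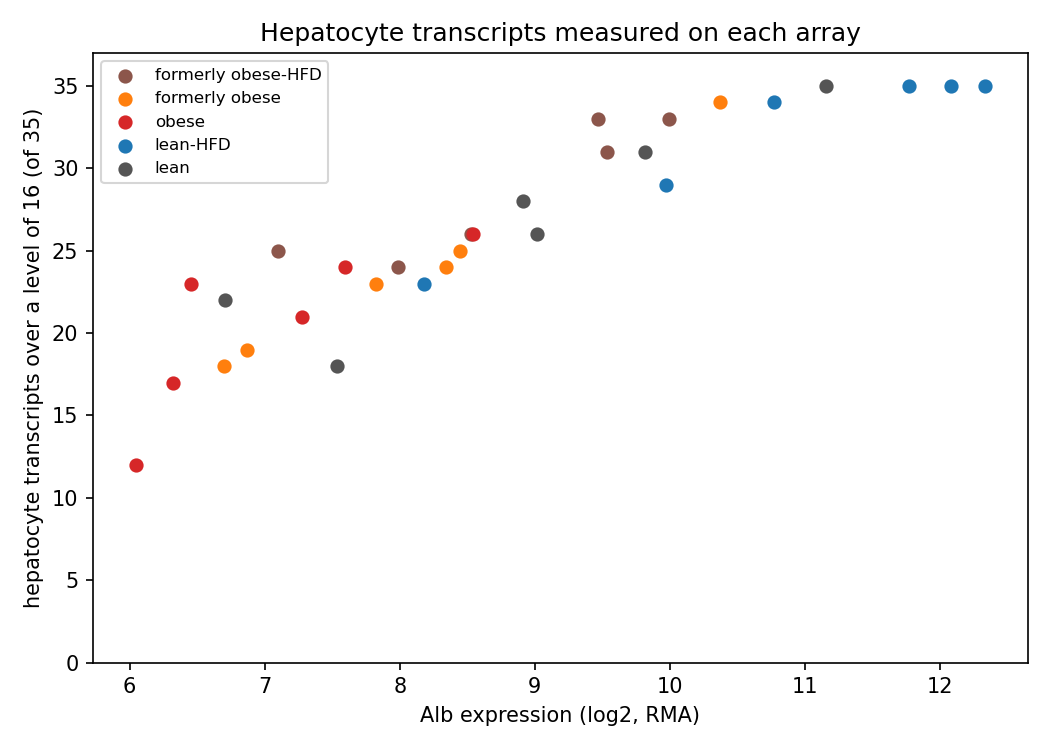
Number of the 35 hepatocyte transcripts over a level of 16 against Alb expression (log2) on the same array, 1 point for each of the 30 arrays, coloured by group. The count runs from 12 at the lowest Alb value to 35 on the 3 lean-HFD arrays and the 1 lean array with the highest Alb values.

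Co-variation was then measured as the Pearson correlation with Alb over the 30 arrays after each group's mean was removed, so that differences between groups do not enter. The 34 other members had a median correlation of 0.74, with a range of 0.39 to 0.97, against a median of -0.01 over all genes. A correlation over 0.5 was reached by 31 of the 34, over 0.7 by 23 and over 0.8 by 12. Of the 22179 genes other than Alb, the 34 members included, 1.03%, 0.248% and 0.0992% passed these cut-offs. Members made up 12 of the 22 genes over 0.8. Of the 50 genes with the highest correlation, 19 were members. The points share the array, and with it the amount of tissue of each kind in a sample, so no p is given.

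The co-variation was present in each group. The median over the 34 members was 0.76 in formerly obese-HFD, 0.83 in formerly obese, 0.78 in obese, 0.93 in lean-HFD and 0.90 in lean mice, each over 6 arrays. With lean-HFD replicates 1, 2 and 4 left out the median over all groups was 0.76 and 30 members stayed over 0.5 (1.09% of all genes), and over the 24 arrays outside the lean-HFD group it was 0.76 with 29 members (1.36% of all genes). The 3 highest arrays were thus not needed for it.

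Among the carriers and lipoproteins, Apoa2, a protein of high-density lipoprotein, followed Alb most closely of all members, with a correlation of 0.97. Apoa2 had a lowest, median and highest value of 6.40, 8.31 and 10.01 in formerly obese-HFD, 5.68, 6.66 and 9.001 in formerly obese, and 5.48, 6.54 and 7.84 in obese mice. In lean-HFD mice these values were 6.80, 10.82 and 12.04, against 5.90, 8.11 and 11.10 in lean mice. As for Alb, the ranges of all groups overlapped.

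Ahsg (fetuin-A), Apoa1, the main apolipoprotein of high-density lipoprotein, and Ambp, the precursor of alpha-1-microglobulin and bikunin, had correlations of 0.92, 0.90 and 0.90. Azgp1 (zinc-alpha-2-glycoprotein) had 0.83, Apoc3, an inhibitor of triglyceride clearance, had 0.73, and Vtn (vitronectin) had 0.72. Apon (apolipoprotein N) had 0.71 and Hpx (hemopexin, which binds haem) had 0.70. Vtn moved over the smallest range of this class, 2.88 log2 units between its lowest and highest array, and Apoa2 over the widest, 6.56.

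Pon1, a paraoxonase carried on high-density lipoprotein, had a correlation of only 0.42, and its lowest, median and highest value were 4.89, 5.20 and 6.69 in formerly obese-HFD, 4.54, 4.91 and 6.39 in formerly obese, and 4.04, 4.22 and 4.54 in obese mice. In lean-HFD mice Pon1 had 7.27, 8.67, 7.99, 8.23, 6.50 and 6.52 in replicates 1 to 6, against 5.49, 6.56, 4.96, 6.36, 4.29 and 6.11 in lean mice. Lean-HFD replicate 3, where Alb was 8.18, thus had the third highest Pon1 value of its group. The correlation of Pon1 with Alb was -0.16 within formerly obese-HFD and 0.27 within lean-HFD mice, but 0.81 within formerly obese and 0.94 within obese mice.

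Of the coagulation and complement genes, the 3 chains of fibrinogen moved together with Alb, at correlations of 0.90 for Fgb, 0.90 for Fgg and 0.89 for Fga. Fgg had the highest mean of this class, with a lowest, median and highest value of 4.42, 5.92 and 7.70 in formerly obese-HFD, 4.29, 4.52 and 6.62 in formerly obese and 3.70, 4.39 and 5.07 in obese mice. Fgg had 5.20, 8.70 and 10.73 in lean-HFD mice, against 4.02, 5.41 and 8.68 in lean mice. For Fgb these values were 4.20, 5.75 and 7.53 in formerly obese-HFD, 3.59, 4.20 and 6.75 in formerly obese and 3.81, 3.92 and 4.71 in obese mice, and 5.67, 8.55 and 10.49 in lean-HFD against 4.11, 5.35 and 8.44 in lean mice. By group median both genes were highest in lean-HFD and lowest in obese mice.

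Kng1 (kininogen) had a correlation of 0.65 and C8a, a chain of complement component 8, the lowest of the class, 0.59. C8a was 5.62, 6.88, 4.45, 6.17, 4.74 and 4.30 in lean-HFD replicates 1 to 6, against 3.99, 3.87, 4.20, 4.26, 4.19 and 3.91 in lean mice. It ranged from 3.77 to 4.40 in formerly obese-HFD, from 3.64 to 4.14 in formerly obese and from 3.61 to 4.03 in obese mice. Every lean-HFD array lay above every lean array for C8a, including replicate 3 with its low Alb.

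Among the protease inhibitors, Pzp and Mug1, broad inhibitors of the alpha-2-macroglobulin family, followed Alb with correlations of 0.93 and 0.90. Pzp had a lowest, median and highest value of 4.61, 6.17 and 7.41 in formerly obese-HFD, 4.11, 4.57 and 7.15 in formerly obese, 3.75, 4.50 and 5.14 in obese, and 4.78, 8.86 and 10.57 in lean-HFD mice, against 4.14, 5.53 and 8.49 in lean mice. The alpha-1-antitrypsin genes, which restrain neutrophil elastase, followed less, with 0.63 for Serpina1e and 0.43 for Serpina1a. Genes of this family, like the major urinary proteins and the Ugt2b, Ces1, Cyp3a and alpha-2-macroglobulin families, have near-identical copies, so that a probe set may also read a relative.

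Serpina1a stayed between 6.44 and 9.34 on all 30 arrays. It had a lowest, median and highest value of 6.74, 7.27 and 7.75 in formerly obese-HFD, 6.44, 7.31 and 8.02 in formerly obese and 7.11, 7.52 and 8.76 in obese mice, and 7.88, 9.07 and 9.34 in lean-HFD against 7.06, 8.54 and 8.999 in lean mice. Within formerly obese mice its correlation with Alb was -0.07, and formerly obese replicate 1, with an Alb value of 10.37, had a Serpina1a value of 7.39, inside the range of its group. Serpina1e was 8.85, 10.16, 8.25, 9.25, 8.87 and 9.85 in lean-HFD replicates 1 to 6, against 7.62, 5.57, 6.96, 9.10, 5.88 and 5.36 in lean mice. All lean-HFD arrays were above 8, and of the lean arrays 1 was, replicate 4.

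The major urinary proteins, small carriers of pheromones that mouse liver secretes for excretion in urine, had correlations of 0.96 for Mup3, 0.87 for Mup20 and 0.76 for Mup21. Mup20 spanned the widest range of all members, 8.94 log2 units, with a lowest, median and highest value of 5.63, 8.35 and 9.56 in formerly obese-HFD, 3.74, 6.64 and 9.62 in formerly obese, 2.84, 5.73 and 6.75 in obese and 8.43, 10.68 and 11.78 in lean-HFD mice, against 3.41, 8.13 and 10.76 in lean mice. Mup3 had 5.76, 7.94 and 8.81 in formerly obese-HFD, 3.65, 6.04 and 7.91 in formerly obese, 4.50, 5.05 and 7.25 in obese and 7.11, 10.30 and 11.38 in lean-HFD mice, against 4.75, 7.59 and 10.20 in lean mice. Mup21 was low outside the lean-HFD group, with highest values of 3.72 in formerly obese-HFD, 4.06 in formerly obese, 3.15 in obese and 4.80 in lean mice, while its lean-HFD values ran from 3.28 to 7.78 with a median of 6.34.

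The 11 enzymes followed Alb with correlations from 0.39 to 0.80 and a median of 0.71. Mat1a, which makes S-adenosylmethionine in liver, was highest at 0.80, followed by Ces1c, a carboxylesterase, at 0.79 and Uox, which degrades urate, at 0.79. Mat1a had a lowest, median and highest value of 4.15, 4.67 and 5.67 in formerly obese-HFD, 3.99, 4.25 and 5.18 in formerly obese, 3.91, 4.25 and 4.84 in obese and 4.26, 6.63 and 8.43 in lean-HFD mice, against 4.35, 4.48 and 6.80 in lean mice. The cytochrome P450 genes Cyp2a12 and Cyp3a11 had 0.76 and 0.70, Ugt2b5 had 0.71, and Otc of the urea cycle had 0.71. Cyp3a11 had 2 further probe sets shared with other symbols, which were not used. Rgn (regucalcin) had 0.69 and Hal, which breaks down histidine, 0.60.

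The enzymes of glucose production followed least. Fbp1, the fructose bisphosphatase of gluconeogenesis, had a correlation of 0.55, with 0.94 within lean-HFD and 0.87 within lean mice but -0.06 within formerly obese-HFD and -0.24 within formerly obese mice. Fbp1 had a lowest, median and highest value of 4.07, 6.20 and 7.12 in formerly obese-HFD, 4.04, 4.50 and 6.29 in formerly obese, 3.59, 4.41 and 4.84 in obese and 3.97, 6.11 and 8.00 in lean-HFD mice, against 3.91, 5.14 and 7.58 in lean mice. Its formerly obese-HFD median was thus as high as its lean-HFD median, unlike that of Alb.

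G6pc, the catalytic subunit of glucose-6-phosphatase, had the lowest correlation of all members, 0.39. G6pc stayed between 3.68 and 4.44 on every array but lean-HFD replicate 2, where it was 5.71. It was 3.84 to 4.28 in formerly obese-HFD, 3.92 to 4.10 in formerly obese, 3.73 to 3.98 in obese and 3.71 to 4.22 in lean mice. Asgr1, a subunit of the receptor that clears glycoproteins from blood, ranged from 3.56 to 5.89 and had a correlation of 0.64, with its highest value on lean-HFD replicate 2.

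**Figure D4:**
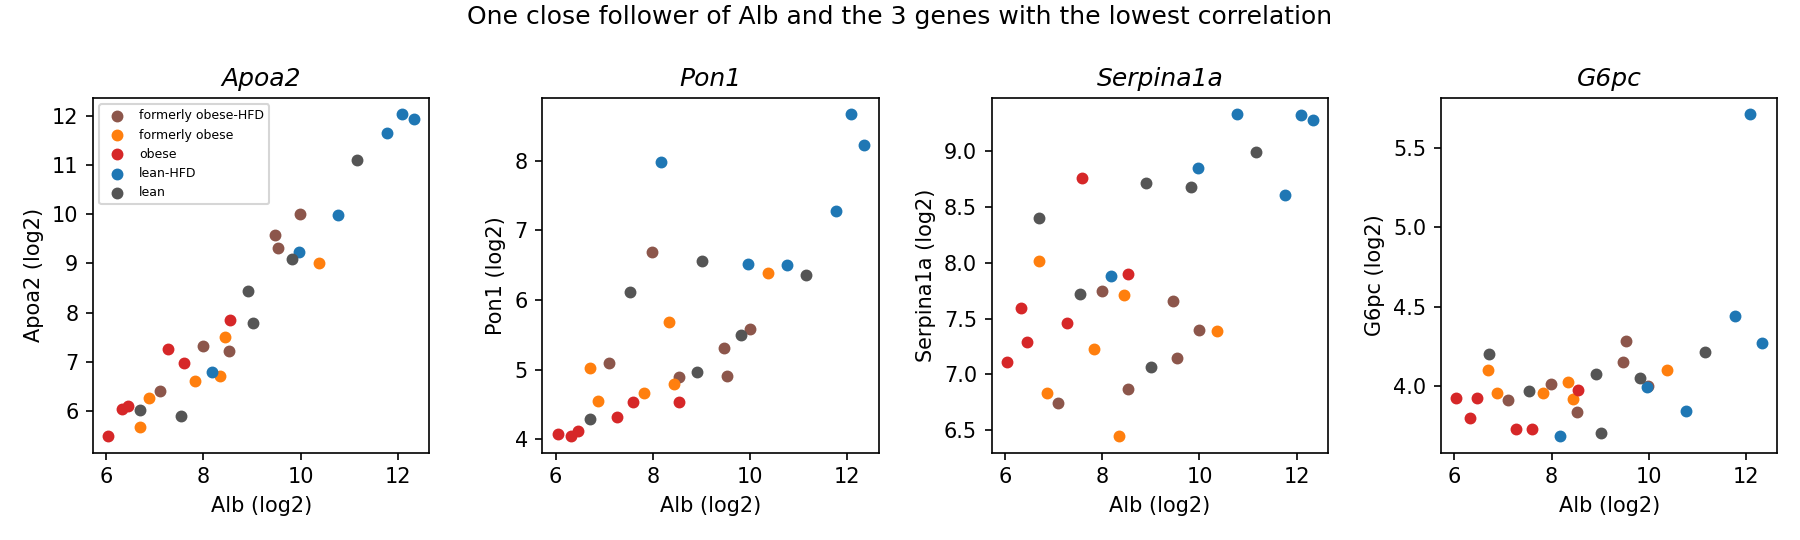
Expression (log2) of Apoa2 and of the 3 members with the lowest correlation with Alb, Pon1, Serpina1a and G6pc, against Alb expression (log2) on the same array, 1 point for each of the 30 arrays, coloured by group. Apoa2 forms a narrow band (0.97 after group means were removed), whereas Pon1, Serpina1a and G6pc scatter (0.42, 0.43 and 0.39).

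A pattern that could be the fat's own was defined by a correlation with Alb under 0.5 or a level over 16 on every array, and 11 genes met it. By the correlation these were Pon1, Serpina1a and G6pc, and the nearest gene on the other side was Fbp1 at 0.55. By the level they were the 10 genes listed above, which include Alb, Apoa1 and Apoa2. Alb itself meets the level criterion, so the level alone does not set a gene apart from Alb. The correlation criterion turned on single arrays. On leaving out 1 array the correlation rose to at most 0.540 for Pon1 and 0.525 for Serpina1a. It fell to as low as 0.469 for Fbp1, 0.488 for Hal and 0.496 for C8a. G6pc stayed under 0.5 throughout, but it was over a level of 16 on only 14 arrays, so its low correlation says little about fat. Whether fat cells transcribed any of the 11 genes was not tested.

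The comparison of obese with lean mice shows where the hepatocyte transcripts stood after the long diet. Alb was 7.04 ± 0.94 in obese and 8.86 ± 1.59 in lean mice (SD, n = 6 each), a difference of -1.82 ± 0.67 (adjusted p = 0.151, limma with Benjamini-Hochberg adjustment over all probe sets). All 35 members had a lower mean in obese mice, with a median difference of -0.74 against -0.02 over all probe sets. The members vary together between arrays. Counts of members by direction or by p, here and in the comparisons below, are therefore not independent results. By the study's cut-offs (adjusted p under 0.10, fold over 1.3 and a level over 16 in a group), 2 members fell and 0 rose, against 2.11% and 3.93% of all probe sets. Those that fell were Pon1 (-1.36 ± 0.33, adjusted p = 0.0300) and Apoa1 (-1.30 ± 0.41, adjusted p = 0.0920). At an unadjusted p under 0.01 Apoc3 joined them (-0.62 ± 0.20, adjusted p = 0.101), and such a call was made for 2.18% of all probe sets. Of the further hepatocyte genes described below, 22 of 24 were lower (median -0.53), where Hnf4a fell and Gys2 rose. Markers of hepatocytes near the portal vein were lower for 5 of 5 (median -0.13, Cyp2f2 and Pck1 called). Those of hepatocytes near the central vein were lower for 8 of 8 (median -0.26, Cyp2e1 called). Several lists of other tissues were lower in obese mice too. The mean was lower for 6 of 6 mesothelium markers (median -0.53, Wt1 called) and 5 of 5 bile duct markers (median -0.52, 0 called). It was also lower for 5 of 5 intestine markers (median -0.18, 0 called) and 4 of 4 kidney markers (median -0.26, 0 called). Of the adipocyte markers 8 of 9 were lower (median -0.31), where Retn and Lipe fell and Lep rose. Not every list was lower. The acute-phase genes that fat expresses were higher for 4 of 5 (median 0.36), and Saa3 and Lrg1 rose. Of 5 Kupffer cell markers 2 were higher and 3 lower (median -0.07), and 5 of 5 pancreas markers were lower by a median of only -0.04. The part of these other cells in the result was not tested.

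Of the 35 members 32 passed the level filter. The number that fell depended on single arrays: without lean replicate 5, which had the lowest Alb of the lean mice, 6 members fell and Alb itself was called (-2.25 ± 0.60, adjusted p = 0.0487), with 2763 of all probe sets called against 2496 on all arrays. Pon1 was called in each of the 12 fits that left out 1 array (adjusted p of 0.00327 to 0.0693). The call of Apoa1 was lost in 8 of the 12, those without lean replicate 1, 2 or 3 and those without obese replicate 1, 2, 3, 5 or 6 (adjusted p of 0.0605 to 0.184 over the 12).

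The comparison of formerly obese with lean mice asks what remained after the diet switch. Alb was 8.09 ± 1.33 in formerly obese and 8.86 ± 1.59 in lean mice (SD, n = 6 each; -0.77 ± 0.75, adjusted p = 0.889, limma). Of the members 34 had a lower mean, with a median difference of -0.45, and 0 were called, as were 0% of all probe sets. For this comparison in gWAT the paper reports genes that passed its adjusted cut-off, Vcam1, Lyz1 and Nmb among them. The fit used here called none of them, and why the results differ was not tested. At an unadjusted p under 0.05, 2 members and 2861 of all probe sets were below the threshold.

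Between formerly obese and obese mice, 31 members had a higher mean in formerly obese mice, with a median difference of 0.24, and Alb differed by 1.05 ± 0.59 (adjusted p = 0.398, limma). Pon1 alone rose (0.91 ± 0.28, adjusted p = 0.0844) and 0 members fell, against 2.02% and 3.17% of all probe sets. Its groups did not overlap (1.44% of all probe sets), but only just: the lowest formerly obese value was 4.542 and the highest obese value 4.539. The call was lost in 8 of 12 fits that left out 1 array, those without formerly obese replicate 4 or 5 and those without any one of the 6 obese arrays. These 3 comparisons share their arrays in pairs, so that their values are not independent of each other.

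The 48 h of HFD were examined first in mice without a history of obesity. Alb was 10.85 ± 1.58 in lean-HFD and 8.86 ± 1.59 in lean mice (SD, n = 6 each; 1.99 ± 0.81, adjusted p = 0.841, limma). All 35 members had a higher mean in lean-HFD mice, between 0.29 for G6pc and 3.14 for Mup20, with a median of 1.99 against 0.00 over all probe sets. None was called after adjustment, against 0.00242% of all probe sets upward and 0% downward, while 25 of the 35 had an unadjusted p under 0.05, as had 2440 of all 41345 probe sets. With the looser cut-off of an unadjusted p under 0.01, 10 members were higher, against 0.423% of all probe sets: Pon1, Hpx, Azgp1, Ahsg, Fga, Fgb, C8a, Serpina1e, Mup21 and Cyp2a12. The smallest p belonged to Serpina1e (2.46 ± 0.58, adjusted p = 0.786), Pon1 (1.90 ± 0.46, adjusted p = 0.786) and Azgp1 (2.13 ± 0.58, adjusted p = 0.821). C8a alone did not overlap between the groups, as did 0.143% of all probe sets in that direction.

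With lean-HFD replicates 1, 2 and 4 left out together, the median difference was 0.50, with 27 members higher and 8 lower, and that of Alb was 0.78 ± 0.91 (adjusted p = 0.892, limma). These arrays were chosen for their high Alb values while lean replicate 4, also high, stayed in, so the difference of any gene that follows Alb is lowered by construction, and the values are a description only. Mup20 (2.32), Serpina1e (2.24), Pon1 (1.37) and Mup3 (1.36) then had the highest differences. Fbp1 (-0.71), G6pc (-0.20), Otc (-0.16), Uox (-0.11), Hal (-0.09), Cyp3a11 (-0.08), Mat1a (-0.07) and Rgn (-0.06) were then lower. Of the 11 enzymes the other 3 were higher, Cyp2a12 (0.98), Ces1c (0.37) and Ugt2b5 (0.32).

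The same diet step was then examined in mice with a history of obesity. Alb was 8.77 ± 1.10 in formerly obese-HFD and 8.09 ± 1.33 in formerly obese mice (SD, n = 6 each; 0.68 ± 0.62, adjusted p = 0.947, limma). Of the members 32 had a higher mean, with a median difference of 0.57, and 0 were called, as were 0% of all probe sets, while 6 had an unadjusted p under 0.05, as had 2207 of all probe sets. At an unadjusted p under 0.01, 3 were higher, against 0.21% of all probe sets: Apon (0.61 ± 0.16, adjusted p = 0.876), Apoc3 (0.66 ± 0.19, adjusted p = 0.876) and Rgn (0.63 ± 0.20, adjusted p = 0.912).

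Formerly obese-HFD mice were then compared with lean-HFD mice. Alb was 8.77 ± 1.10 in formerly obese-HFD and 10.85 ± 1.58 in lean-HFD mice (SD, n = 6 each; -2.08 ± 0.70, adjusted p = 0.482, limma). All 35 members had a lower mean in formerly obese-HFD mice, with a median of -2.07. None was called, as were 0% of all probe sets, and the unadjusted p was under 0.05 for 28 members and for 3418 of all probe sets. At an unadjusted p under 0.01, 14 were lower, against 0.588% of all probe sets. Serpina1a had the smallest p (-1.62 ± 0.26, adjusted p = 0.472), with 7.26 ± 0.41 in formerly obese-HFD and 8.88 ± 0.57 in lean-HFD mice, and its highest formerly obese-HFD value of 7.75 lay below its lowest lean-HFD value of 7.88 (0.23% of all probe sets). Pon1 (-2.12 ± 0.41) and Azgp1 (-2.25 ± 0.56) followed, each with an adjusted p of 0.472. Without lean-HFD replicates 1, 2 and 4 the median was -0.64, with 26 members lower and 9 higher, and Alb differed by -0.87 ± 0.70. Since these arrays were chosen for their high Alb, the gap is narrowed by construction, and the values are a description only. When limma was fitted on all 30 arrays at once, 6 members fell, among 47 probe sets called in either direction. The comparisons of the diet step share arrays with each other and with those above.

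**Figure D5:**
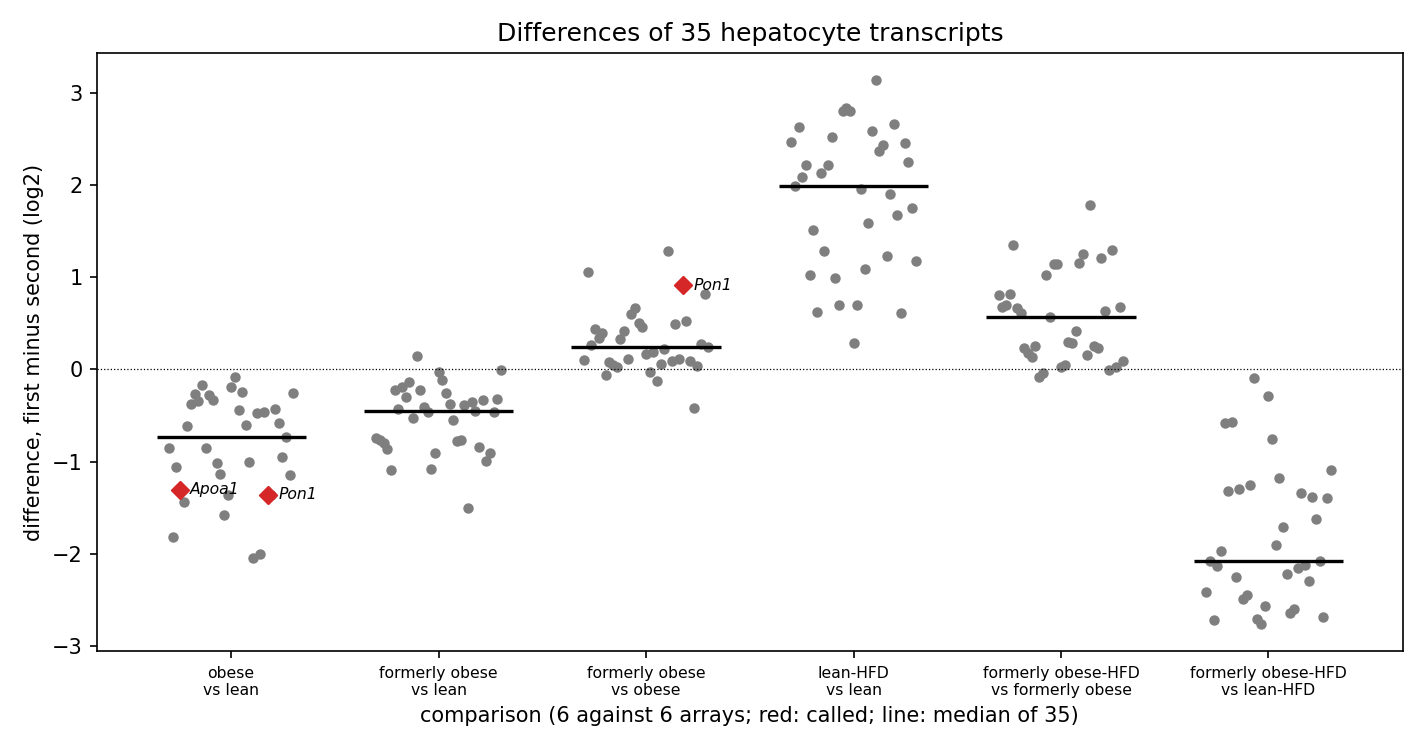
Difference in mean expression (log2, first-named minus second-named group) of each of the 35 hepatocyte transcripts in 6 comparisons of 6 against 6 arrays, 1 point for each gene, the line at the median and red diamonds for called genes. Medians are -0.74, -0.45, 0.24, 1.99, 0.57 and -2.07, and the called genes are Apoa1 and Pon1 in obese against lean mice and Pon1 in formerly obese against obese mice.

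Whether the 48 h step differed with the history was tested as an interaction over 24 arrays. The step was smaller in formerly obese mice for 34 of the 35 members, with a median of -1.17. The members vary together between arrays, so this count does not stand for 34 separate results. After adjustment 0 were called, as were 0% of all probe sets, while 8 had an unadjusted p under 0.05, as had 1904 of all probe sets. For Alb the interaction was -1.32 ± 1.08 (adjusted p = 0.9999, limma). Cyp2a12 (-2.59 ± 0.83) and Azgp1 (-1.95 ± 0.69) passed the looser cut-off, against 0.302% of all probe sets. Without lean-HFD replicates 1, 2 and 4 the median was 0.04, with 18 members above 0 and 17 below. Arrays of high Alb were here left out of the lean-HFD group alone. The interaction of any gene that follows Alb is therefore raised by construction, and these values are a description only.

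Genes outside the 35 showed the same arrays. The 5 most like Alb were Fabp1, the fatty acid binding protein of liver (0.96), Hamp, the iron hormone hepcidin (0.96), the antitrypsin genes Serpina1d (0.95) and Serpina1c (0.95), and Ttr, the carrier transthyretin (0.94), over 30 arrays with group means removed. Of a list of 30 further hepatocyte genes 24 were measured, 19 of them had a correlation over 0.5, and for 18 the 3 highest arrays were lean-HFD replicates 1, 2 and 4. Their summed level had a lowest, median and highest value of 628, 1107 and 1604 in formerly obese-HFD, 577, 653 and 1679 in formerly obese and 607, 702 and 922 in obese mice, and of 686, 3841 and 10567 in lean-HFD against 674, 970 and 3467 in lean mice. None of the 24 was called with the 48 h diet step in either history. Hnf4a, a nuclear receptor of hepatocytes, fell in obese against lean mice (-0.57 ± 0.12, adjusted p = 0.0141, limma) and Gys2, the liver glycogen synthase, rose (1.13 ± 0.23, adjusted p = 0.0119), although neither followed Alb (0.23 and 0.27). Within single groups Gys2 ran from -0.58 in lean to 0.93 in lean-HFD mice. Between formerly obese and obese mice Slc10a1 and Fgl1, which followed Alb (0.74 and 0.61), rose and Gys2 fell. Such calls were made for 2.02% and 3.17% of all probe sets.

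Markers of the other cells of liver were examined in the same way. None of 5 Kupffer cell, 5 bile duct and 6 sinusoid or stellate markers had a correlation over 0.5, against 1.03% of all genes. In lists this short such a count says little. Clec4f, a defining receptor of Kupffer cells, had 0.38 and Clec4g of the liver sinusoid 0.42, and both had their highest value on lean-HFD replicate 2, at 5.35 and 6.01. Within the 6 lean-HFD arrays, however, Clec4f had a correlation of 0.86, Marco 0.83, Timd4 0.75 and Lrat, which stores retinol in stellate cells, 0.74, beside the member median of 0.93 in that group. Over these arrays Clec4f spanned only 4.304 to 5.353 and Marco 4.085 to 4.814. Timd4 spanned 5.917 to 6.568 and Lrat 3.621 to 4.005. The other Kupffer cell and sinusoid or stellate markers had lower correlations with Alb in that group. Clec4g had 0.55, Vsig4 0.47, Colec11 0.38, Stab2 0.37, Oit3 -0.04, Reln -0.47 and Cd5l -0.59. The bile duct markers ran from -0.365 for Krt19 to 0.57 for Cftr in that group. The summed level of the Kupffer cell markers was 184 to 394 in formerly obese-HFD, 188 to 287 in formerly obese, 207 to 329 in obese and 198 to 271 in lean-HFD mice, against 203 to 277 in lean mice. A sum can hide single markers: Vsig4 rose and Timd4 fell in obese against lean mice, and Timd4 rose and Vsig4 fell in formerly obese against obese mice. Of the zone markers, 1 of 5 of the hepatocytes near the portal vein and 1 of 8 of those near the central vein had a correlation over 0.5. Cyp1a2 of the hepatocytes near the central vein had 0.75 and Hsd17b13 of those near the portal vein 0.57, while Glul, Cyp2e1 and Pck1, which fat also expresses strongly, had -0.16, 0.15 and 0.25. Lect2 had 0.496, just under the cut-off, Cyp2f2 0.36, Axin2 0.34 and Oat 0.21. Slc1a2 had 0.29, Ass1 -0.09, Aldh1b1 -0.24 and Rhbg -0.42. Cyp2f2, Pck1 and Cyp2e1 fell in obese against lean mice and rose in formerly obese against obese mice. Such calls were made for 2.11% and 2.02% of all probe sets.

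Among other neighbouring organs, 0 of 5 pancreas, 0 of 4 kidney and 0 of 4 epididymis or sperm markers had a correlation over 0.5. Of 5 intestine markers 1 had, Fabp2 (0.68). The share over all genes was 1.03%, so a count of 0 says little in lists this short. Most pancreas markers were also low: Cela3b was over a level of 16 on 0 arrays, Prss2 on 1, Cpa1 on 5 and Cel on 9. Ctrb1 was over it on all 30. The only red blood cell marker measured, Slc4a1, had 0.03. Of the mesothelium list 0 of 6 did, with a median of 0.21, and of the acute-phase genes that fat expresses 0 of 5 did, with a median of 0.06. Adam7 of the epididymis was highest on lean-HFD replicate 1 at 10.82, and its correlation with Alb was -0.01. How these other tissues bear on the hepatocyte transcripts was not tested.

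Alb was also entered as a covariate. With it, 1012 probe sets were called between obese and lean mice, against 2496 without it, and 1214 between formerly obese and obese mice, against 2146. Between lean-HFD and lean mice 3 were called, against 1, and between formerly obese-HFD and lean-HFD mice 2, against 0, while in the other 3 comparisons 0 were called in both fits. None of the other 34 members was called in any of the 7 comparisons with that covariate. Most members follow Alb, so differences that go with Alb are taken out by construction, and this count is a description only. The covariate also takes a degree of freedom and differs between the groups, and what it removes was not tested.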

How the data were processed

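Total RNA from gWAT was amplified, labelled with biotin and hybridised to 30 Affymetrix Mouse Gene 2.0 ST arrays by the authors, 1 array for each sample. Per probe set the authors deposited a log2 expression value, made by robust multi-array average in Affymetrix Expression Console 1.4.1.46. This corrects background, brings all arrays to one distribution and summarises probes, so that differences of bright and dim genes are compressed. Values lay between 2.07 and 13.86 and were used as deposited. Gene symbols came from the probe set annotation, and 23521 of 41345 probe sets had 1 symbol.

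Groups were taken from the labels and tested two-sided by lmFit and eBayes of limma 3.58.1 (R 4.3.3) on the arrays of the groups compared. p-values were adjusted by Benjamini-Hochberg over all 41345 probe sets. A call needed an adjusted p under 0.10, a fold over 1.3 and a mean level over 16 in a group, the study's cut-offs. The looser set used an unadjusted p under 0.01. Alternatives changed the arrays fitted, filters, variance model, array weights and cut-off, added the replicate number as a block, or left out each array. Scripts were tested on simulated data.

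In each role class the text gives group values for the member with the highest mean and those with the highest and lowest correlation with Alb, and limma values for at most 3 members of each comparison, by p. Other genes given values were picked with those values known. The members and all lists were chosen with earlier results of these data known.

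The labels do not say that a replicate number pairs samples, and the numbers were treated as not pairing them. Of 60 same-numbered pairs, 11 had deviations correlated over 0.1 across all probe sets. Pairs with different numbers were not examined, and single genes can behave otherwise. Whether a number marks something shared was not tested.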

Additional observations from a re-analysis of the deposited data

Results flagged for a closer look

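In 21 of 175 gene and group combinations, 1 of the 6 arrays lay apart from the rest, its gap to the nearest array, as a share of the group's whole range, being above Dixon's critical value for 6 arrays. Chance flags about 1 in 20 groups, and combinations on the same array are not independent. In 10 of the 21, formerly obese replicate 1 was the highest of its group: Apoa1 (0.792), Ambp (0.802), Fga (0.645), Fgg (0.848), Pzp (0.749), Mup21 (0.688), Ugt2b5 (0.758), Ces1c (0.7), Hal (0.703) and Otc (0.684). Fgg was 6.62 there and 4.64 on the next array, and Pzp was 7.15 and 4.88.

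In 7, lean replicate 4 was the highest: Fga (0.637), Mug1 (0.652), Cyp3a11 (0.695), Ugt2b5 (0.647), Rgn (0.763), Otc (0.629) and Mat1a (0.774). Mat1a was 6.80 there and 4.91 on the next lean array. Both arrays had the highest Alb of their group. G6pc was set apart on lean-HFD replicate 2 (0.626), and Fgb on obese replicate 4 (0.743), which had the highest Alb of the obese mice. On obese replicate 5, Kng1 (0.653) and C8a (0.671) were set apart as the lowest. In the lean-HFD group, where replicates 1, 2 and 4 were high together, G6pc was the only gene of this kind.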

How the results depend on the processing

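The number of members called was small and moved with the setting. For obese against lean mice, 2 members fell, against 1 in a limma fit on all 30 arrays, 0 of 34 with Alb as a covariate (a setting chosen after seeing the data) and 1 to 6 when 1 array was left out. Alb differed by -1.82, with a range of -2.25 to -1.36 and adjusted p of 0.0487 to 0.277 on leaving out 1 array, and it was called only without lean replicate 5. For formerly obese against obese mice the 1 member that rose was 0 in the fit on all 30 arrays and with Alb as a covariate, and 0 to 1 on leaving out 1 array. For formerly obese-HFD against lean-HFD mice the count that fell was 0, but 6 in the fit on all 30 arrays and 0 to 1 on leaving out 1 array, the 1 without lean-HFD replicate 3. With an unadjusted p under 0.01, 10 rose in lean-HFD against lean, 3 rose in formerly obese-HFD against formerly obese, 14 fell in formerly obese-HFD against lean-HFD mice, and 2 fell in the interaction.

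With the replicate block, 6 members fell in obese against lean mice and Alb was called (-1.82 ± 0.28, adjusted p = 0.0196), with 2075 of all probe sets called against 2496 without the block, and no other count of called members changed. The SE of the Alb difference was smaller with the block than without it. Since the numbers share nothing known, this pairing is given as a setting only. Correlations of deviations between same-numbered arrays ran from -0.227 to 0.414. Filters on level, probe sets with 1 symbol, array weights and a robust variance model left every count within 1.5 times. The members over 0.5 with Alb stayed between 29 and 32 of 34 on leaving out 1 array. The fit without lean-HFD replicates 1, 2 and 4 and the correlation over 24 arrays were also chosen after seeing the data. Precision is limited by 6 arrays in each group, and most enzymes lay near a level of 16, where differences are compressed.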
